A study of Hydra vulgaris with 32 samples.

Results

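Heat shock was compared with starvation alone in 8 of the 32 RNA sequencing libraries of the series, 4 from heat-shocked polyps and 4 from untreated ones, chosen by their labels. All of the animals were Hydra vulgaris Sf-1, a strain that is thermosensitive and is also called Hydra magnipapillata A9. The heat shock group was held at 28 °C for 62 h and collected on day 9 after the treatment had begun, by which time the animals had gone 11 days without food. The control group was given no treatment and was collected after 11 days without food. Each library held polyA RNA of central body columns, which lack the apical and basal regions. The labels do not say how many polyps were pooled or whether replicates came from separate cultures. The p-values therefore measure a spread between libraries, which may be technical. In edgeR that spread was estimated from all 32 libraries, not from these 8 alone.

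Hydra is a freshwater cnidarian built from several stem cell lineages. Its ectodermal and endodermal epithelial cells divide slowly, whereas interstitial stem cells divide fast and give rise to nerve cells, nematocytes (the stinging cells), gland cells and germ cells. In strains of the Sf-1 type, raised temperature is known to deplete the interstitial lineage while the epithelial layers live on, and the series title names the loss of fast cycling cells as the purpose of the treatment. In RNA of whole tissue, fewer cells of a type and less RNA per cell cannot be told apart. Counts were summed per locus, the locus number being part of the authors' sequence identifiers. Of a table of 28925 Hydra genes, 0 shared an identifier with the files, so loci carry no gene names here, and the tissue could not be checked against marker genes of its cell types.

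Library totals were 25985515 to 34498862 counts after heat shock and 26792946 to 36567529 counts in controls. Levels are given as CPM, counts per 1000000 counts of the library, after TMM scaling, which assumes that most loci do not differ between libraries. Heat shock replicate B stood closer to the controls than the other heat shock libraries, and results are given with it and without it. The most abundant locus of the table, loc01654, held 0.898%, 7.54%, 1.18% and 1.84% of the counts in heat shock replicates A to D, against 0.486%, 0.901%, 17.3% and 11.4% in control replicates A to D. The groups overlapped, and the locus was not called in edgeR (adjusted p = 0.441). At an equal depth of 25985515 counts, 20066 ± 485 loci were detected after heat shock and 20624 ± 606 in controls (SD, n = 4 each; exact two-sided permutation p = 0.200, where 0.0286 is the smallest p that 4 against 4 allows). The 100 most abundant loci took 35.7% ± 1.59 of the counts after heat shock and 34.6% ± 6.11 in controls (exact permutation p = 0.83). With loc01654 set aside, a choice made after its values were seen, these shares were 33.9% ± 1.16 and 29.4% ± 0.487, and every heat shock library was above every control library (exact permutation p = 0.0286; p = 0.0571 without replicate B, the smallest that 3 against 4 allows).

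Heat shock changed the level of 29.0% of the loci tested in these body columns, 4962 of 17107. Of these, 2502 were higher and 2460 were lower in heat-shocked polyps, 14.6% and 14.4% of all loci tested (edgeR quasi-likelihood test, Benjamini-Hochberg threshold of 0.05). Without replicate B the test called 2229 loci higher and 2477 lower, 13.0% and 14.5% of the loci tested. Across these fits 2129 loci were higher in both, 2305 were lower in both, and 0 changed direction. The calls were steadier among the lower loci: 1922 of the 2460 (78.1%) kept their call when any of the 8 libraries was left out, against 1607 of the 2502 higher loci (64.2%). The near balance of the directions depends on the scaling. With library totals alone the test called 1446 loci higher and 2830 lower, and the median log2 fold change of all loci was -0.15, against -0.01 with TMM scaling.

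**Figure D1:**
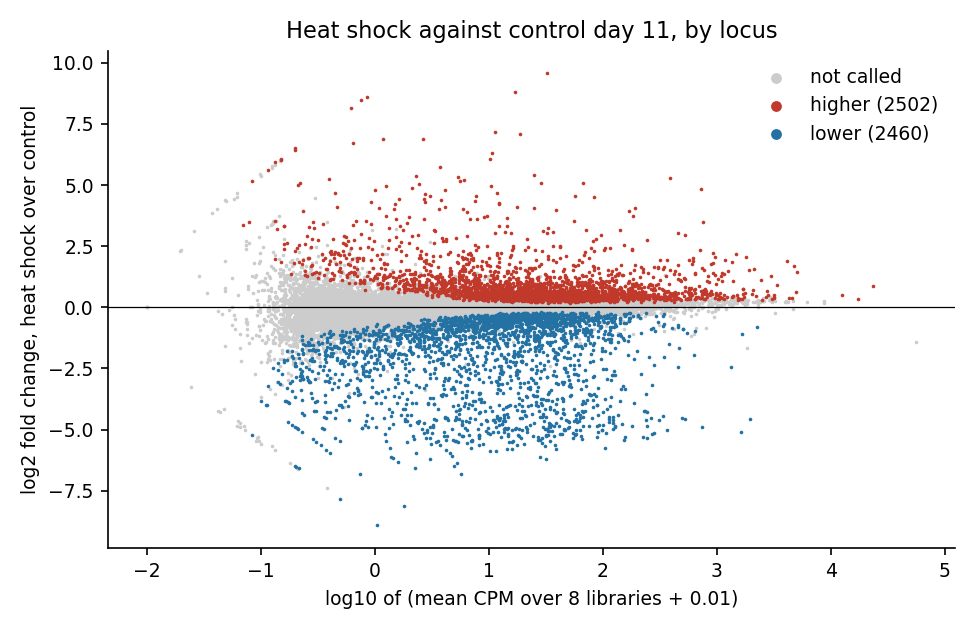
Each point is a locus, with the log10 of its mean CPM over the 8 libraries (plus 0.01) on the x axis and its log2 fold change, heat shock over control, on the y axis. Changes of at least 8-fold are seen in 554 of the 2460 lower loci and in 111 of the 2502 higher loci. Above 1000 CPM nearly all called loci are higher.

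In the median, loci that fell did so by more than loci that rose. The median log2 fold change was -1.19 among the lower loci, with quartiles of -2.75 and -0.59, and 0.63 among the higher loci, with quartiles of 0.43 and 1.07. At least 2-fold changes were found in 1396 lower and 697 higher loci, and at least 8-fold changes in 554 lower and 111 higher loci. This excess of large falls was present under every scaling tried, with 555 to 593 loci at least 8-fold lower and 104 to 113 at least 8-fold higher when the scaling factors were replaced, left out, or taken without loc01654. Replicate B limited the largest falls. At least 32-fold lower were 136 loci with all 4 libraries and 344 loci without replicate B, whereas at least 32-fold higher were 32 and 29 loci.

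The direction of change differed between rare and abundant loci. Of the 3926 tested loci with a mean under 1 CPM over the 8 libraries, 146 were higher and 310 lower. Of the 150 loci over 1000 CPM, 60 were higher and 5 lower, and without replicate B these numbers were 64 and 5. Between 100 and 1000 CPM, 433 of 1374 loci were higher and 154 lower, and with library totals alone the numbers were 296 and 245. In the class of 10 to 100 CPM the balance turned with the scaling, with 1301 higher and 1209 lower under TMM scaling and 685 higher and 1456 lower with library totals alone. The excess of higher loci above 1000 CPM stayed under that scaling, with 43 higher and 7 lower. The mean that sets the classes includes the heat shock libraries. A locus that rises is thus moved toward a higher class and a locus that falls toward a lower one, which adds to this pattern. Classes by control level alone were not made.

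As a share of the RNA measured, the lower loci together held 4.07%, 4.55%, 4.01% and 3.72% in heat shock replicates A to D, against 13.9%, 13.1%, 10.4% and 12.8% in control replicates A to D. The higher loci held 41.8%, 38.6%, 42.2% and 44.0% after heat shock, against 29.1%, 30.3%, 24.4% and 25.5% in controls. The uncalled loc01654 lowers both where it is abundant. With it set aside, the higher loci held 42.2%, 41.7%, 42.7% and 44.8%, against 29.2%, 30.6%, 29.6% and 28.7% in controls. The lower loci then held 4.11%, 4.92%, 4.06% and 3.79%, against 13.9%, 13.2%, 12.6% and 14.5% in controls. These shares are descriptive, because the same libraries chose the loci. Near-complete loss was counted at a fixed limit. Among loci with a control mean of at least 1 CPM, 8 had at most 3 counts in each of the 4 heat shock libraries. Their control means had a median of 1.83 CPM and a maximum of 3.57 CPM. In the heat shock libraries 3 counts equal 0.0841 to 0.125 CPM, so abundant loci can fall far without meeting the limit. How many loci had a control mean of at least 1 CPM was not counted. In replicates A, C and D alone 75 loci met that limit, and 67 of these had over 3 counts in replicate B. When replicate A, C or D was the library set aside instead, 12, 11 and 10 loci met the limit, of which 4, 3 and 2 had over 3 counts in that library. In the other direction 6 loci with at most 3 counts in every control reached a mean of at least 1 CPM after heat shock, and 1 of them had at least 1 CPM in all 4 libraries.

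The loci with the largest changes show how deep the changes went and how far replicates differed. In each direction a fixed rule named the locus with the largest fold change and the locus with the largest difference in CPM, among loci of at least 10 CPM whose heat shock libraries all lay beyond the controls. Among 8085 loci of at least 10 CPM, the rule was met by 1445 of the 1794 called higher and 1252 of the 1368 called lower. Of all 17107 loci tested, whatever their level or call, 2510 (14.7%) had every heat shock library above all 4 controls. Another 2815 (16.5%) had every heat shock library below them.

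The higher locus loc12216, a single sequence, had 76.6, 64.3, 53.2 and 62.3 CPM in heat shock replicates A to D, against 0, 0.0647, 0.0804 and 0.220 CPM in control replicates A to D. The control values rest on 0, 2, 2 and 6 counts, so the locus was nearly silent in controls and was found at a similar level in every heat shock library, replicate B included. Its log2 fold change was 9.57 ± 0.76 (SE; adjusted p = 1.43e-10 in edgeR), a size that depends on those few control counts. The 13 control libraries of all days had 0 to 1.56 CPM.

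The higher locus loc02296, also a single sequence, was 1 of the most abundant loci of the body column. It had 31597, 26032, 30109 and 33959 CPM in heat shock replicates A to D, against 16321, 16971, 17387 and 15944 CPM in control replicates A to D. Its log2 fold change was 0.87 ± 0.10 (SE; adjusted p = 1.51e-07 in edgeR), and the mean difference of 13769 CPM was the largest rise of a locus under the rule. Replicate B was the lowest of the 4 heat shock libraries but lay far above the controls.

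The lower locus loc19605 comprises 5 sequences, of which 4 were called lower by themselves and 0 higher. It had 0.308, 2.91, 0.380 and 0.0946 CPM in heat shock replicates A to D, against 51.1, 81.8, 62.7 and 56.2 CPM in control replicates A to D. Its log2 fold change was -6.21 ± 0.50 (SE; adjusted p = 1.70e-10 in edgeR) and -7.94 without replicate B, the replicate with the most RNA of this locus.

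The lower locus loc11404, a single sequence, had the largest fall in CPM. It had 10.5, 516, 84.9 and 18.2 CPM in heat shock replicates A to D, against 3118, 2924, 3736 and 5091 CPM in control replicates A to D. Every heat shock library was below every control, which the rule required, but the heat shock libraries differed among themselves by more than 10-fold. The log2 fold change was -4.56 ± 0.83 (SE; adjusted p = 9.36e-05 in edgeR) and -6.65 without replicate B (adjusted p = 1.69e-07).

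**Figure D2:**
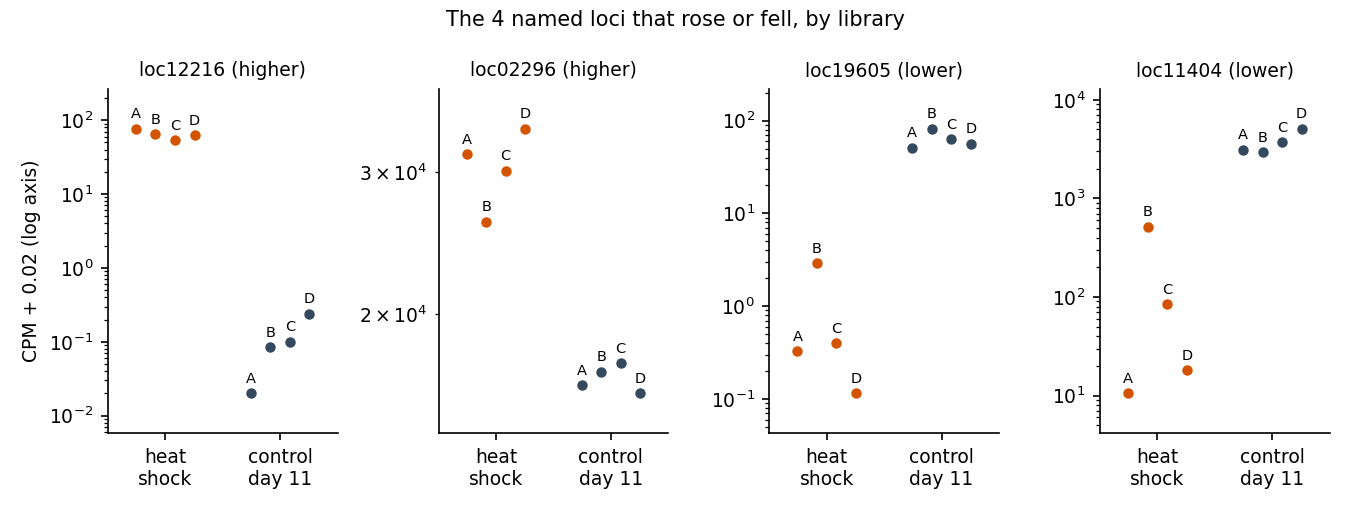
CPM plus 0.02 (log axes, with a scale of its own for each locus) of the 4 named loci that rose or fell, in heat shock and control day 11 libraries, with letters for the replicates. The rule that named these loci admits no overlap of the groups. In both lower loci replicate B is the highest heat shock library, at 2.91 CPM for loc19605 and 516 CPM for loc11404.

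Abundant loci that were not called served as examples of stable levels. The locus loc20703 averaged 4561 ± 483 CPM after heat shock and 4828 ± 549 CPM in controls (SD, n = 4 each), a log2 fold change of -0.08 with a 95% interval of -0.30 to 0.14. With library totals alone it was called lower, at -0.21 (adjusted p = 0.0193 in edgeR). The locus loc24950 averaged 2325 ± 205 CPM after heat shock and 2307 ± 137 CPM in controls (SD, n = 4 each), a log2 fold change of 0.01 with a 95% interval of -0.24 to 0.26.

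To see how each library behaved in loci it had not helped to choose, the test was repeated without it, and its shift from the controls was measured in the loci called at least 2-fold changed by the rest. In lower loci the median log2 shift was -2.26, -1.78, -2.55 and -2.33 in heat shock replicates A to D, against 0.05, -0.11, -0.15 and 0.14 in control replicates A to D. In higher loci it was 1.60, 1.40, 1.40 and 1.46 in heat shock replicates A to D, against -0.12, 0.21, 0.06 and 0.11 in control replicates A to D. Of the lower loci chosen without it, each heat shock library was below the control mean in 97.7% to 99.5%. Replicate B thus had the smallest shift in lower loci and lay among the other heat shock libraries in higher loci.

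**Figure D3:**
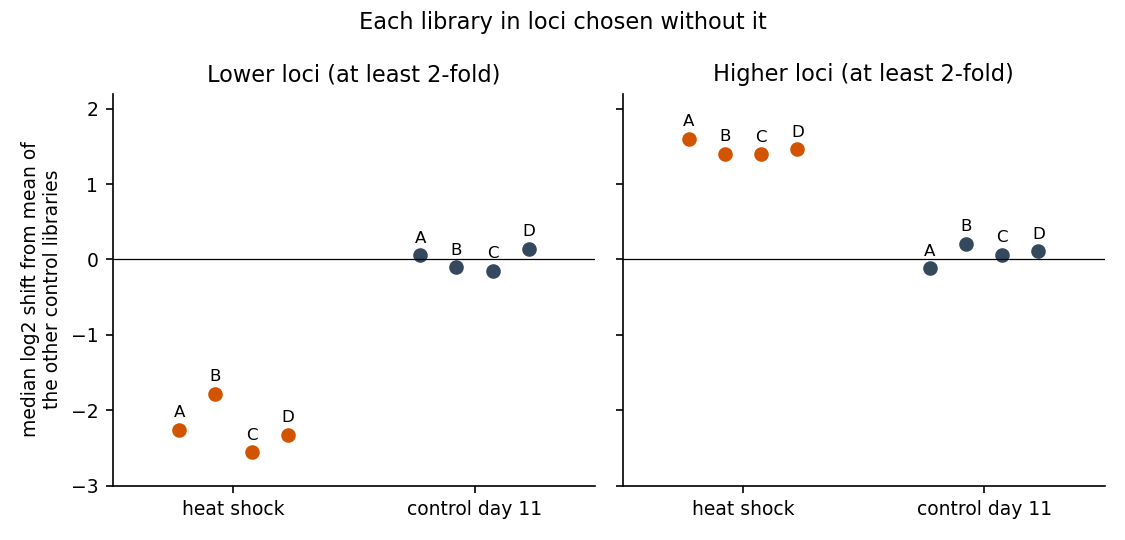
Median log2 shift of each library from the mean of the control libraries (the other 3 for a control), in loci called at least 2-fold lower or higher by a fit that left that library out. Replicate B lies at -1.78 in lower loci, apart from -2.26 to -2.55 in the other heat shock libraries, and at 1.40 in higher loci, beside 1.40 to 1.60.

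What set replicate B apart was a residue of about the same size in loci that had fallen far. Of 1433 loci called at least 2-fold lower without it, 297 were left with under 2% of the control level in the mean of the other 3 heat shock libraries. In these loci the median level was 0.382%, 1.59% and 0.493% of the control mean in replicates A, C and D, which chose the loci, and 10.7% in replicate B, which did not (quartiles 8.32% and 14.2%). In the 1396 loci called at least 2-fold lower with it in the test, replicate B was nearest to the controls in 896 (64.2%). Replicates A, C and D were nearest in 224, 110 and 166 of the 1396. Of the 297 loci, replicate B was above each of the other 3 heat shock libraries in 288. Part of that count is set by choosing loci where the others are low, and the count with another library left out was not made. The residue of replicate B was alike in rarer and more abundant loci of this class, with medians of 10.0% in 75 loci of 1 to 10 CPM in controls, 10.9% in 144 loci of 10 to 100 CPM and 10.7% in 57 loci of at least 100 CPM.

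Across shallower falls the distance between replicate B and the others stayed similar or shrank. The median of replicate B was 13.2% of the control mean where replicates A, C and D kept 2 to 5% (132 loci, their median 3.45%), and 17.0% where they kept 5 to 10% (129 loci, 7.35%). It was 25.6% where they kept 10 to 25% (324 loci, 17.5%) and 45.0% where they kept 25 to 50% (533 loci, 38.2%). In percent of the control mean, the median difference of replicate B from the mean of the other 3 was 9.91, 9.30, 9.65, 8.44 and 6.60 points over these 5 classes, from the deepest fall to the shallowest. The remaining 18 loci kept 50% or more on this linear scale. In loci called at least 2-fold higher without it, replicate B reached 2.08-fold of the control mean where the others reached a median of 2.41-fold (321 loci), and 16.2-fold where they reached 19.4-fold (87 loci). The other libraries chose these loci, and a shortfall was not particular to replicate B. In higher loci chosen without the library in question, its median level in percent of the control mean was 307% in replicate A, 271% in B, 271% in C and 286% in D, where the remaining heat shock libraries had 295%, 310%, 310% and 320%.

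**Figure D4:**
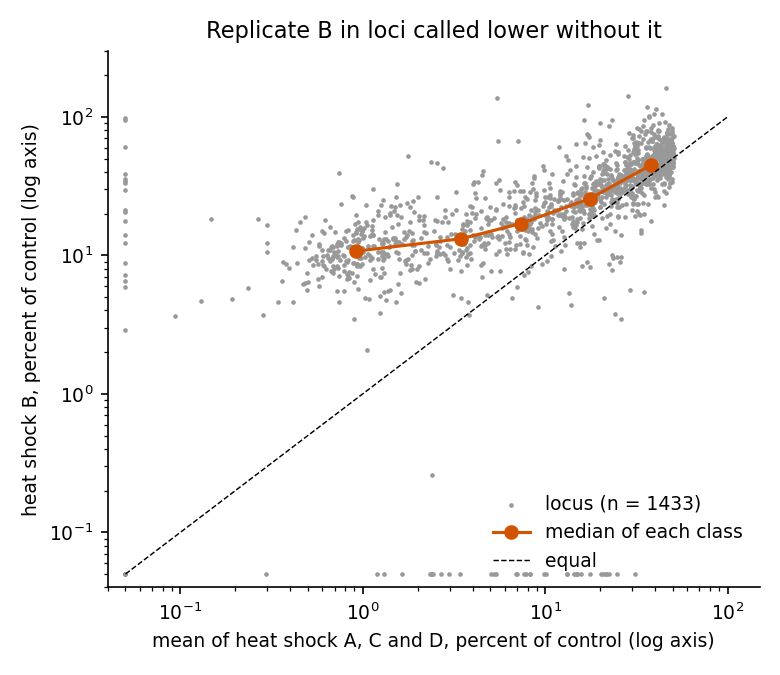
Level of the 1433 lower loci in heat shock replicate B (y axis) against the mean of replicates A, C and D (x axis), both as percent of the control mean on log axes, with values under 0.05 drawn at 0.05. The medians of the 5 classes all lie above the line of equal levels, at 45.0% against 38.2% in the shallowest class and at 10.7% against 0.917% in the deepest.

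The spread between replicates was given as a description, with no test. Among 8085 loci of at least 10 CPM, the median SD of log2 CPM was 0.17 over the 4 heat shock libraries, 0.15 without replicate B and 0.13 over the 4 controls. In the lower loci it was 0.21 after heat shock, 0.18 without replicate B and 0.16 in controls.

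Untreated polyps of other days stayed near the control level of day 11 in the median over the called loci. Their libraries were not in the contrast that chose the loci, but they entered the filter and the estimate of spread in the common fit. In the lower loci, the 4 heat shock libraries had median log2 shifts of -1.25 to -1.03, against -0.06 to 0.13 in the 9 control libraries of days 4, 5 and 7. In the higher loci, the heat shock libraries had 0.54 to 0.68, against -0.09 to 0.13 in those 9 controls. Such medians do not show the drift of single loci between days. Controls of day 4 and day 11 averaged 38.0 and 62.9 CPM for loc19605, and 3985 and 3717 CPM for loc11404. All 4 heat shock libraries were below all 13 control libraries in 1999 of the 2460 lower loci (81.3%) and above all of them in 1439 of the 2502 higher loci (57.5%). Over all loci tested these shares were 13.0% and 9.52%. The heat shock libraries and 4 of the 13 controls chose the called loci, so their shares are partly set by that choice. Against the 4 controls of day 11 alone, 90.7% of the lower and 79.4% of the higher loci did not overlap.

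Hydroxyurea, which blocks DNA synthesis, had been given to polyps of the same strain at 10 mM in 3 periods of 24 h, and its groups of days 4, 5 and 7 have controls of their own (3 libraries per group). No library was shared with the heat shock comparison, although all libraries entered a common fit. Hydroxyurea changed 18.2%, 21.8% and 25.7% of the loci tested on days 4, 5 and 7. Of the 2460 loci lower after heat shock, 57.2%, 65.4% and 69.8% were called lower after hydroxyurea on days 4, 5 and 7, where 11.0%, 13.0% and 14.3% of all loci tested were. As a share of the loci called lower after hydroxyurea, the shared loci made up 74.8%, 72.4% and 70.1%. Of the 2502 loci higher after heat shock, 37.4%, 44.6% and 57.4% were called higher after hydroxyurea, where 7.21%, 8.81% and 11.4% of all loci tested were. These were 75.9%, 74.0% and 73.5% of the loci called higher after hydroxyurea. Calls in opposite directions numbered 15, 14 and 3 among the lower and 3, 8 and 7 among the higher loci of heat shock. On none of the 3 days were 569 of the lower loci (23.1%) and 872 of the higher loci (34.9%) called in the same direction after hydroxyurea.

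By class, the loci that heat shock had reduced the most also kept the smallest share of their control level after hydroxyurea. In the 297 loci left with under 2% after heat shock (replicate B aside), the median level was 11.8% of the control of the same day on day 4, 5.06% on day 5 and 0.287% on day 7, and 82.5%, 92.3% and 98.3% of them were called lower. In the 533 loci left with 25 to 50%, it was 62.2%, 55.2% and 52.7%, and 43.5%, 53.5% and 59.3% were called lower. Among the named loci, loc11404 had 1007 ± 64.1, 410 ± 80.3 and 2.96 ± 0.754 CPM after hydroxyurea on days 4, 5 and 7, against 3985 ± 569, 3977 ± 775 and 3377 ± 741 CPM in the controls of those days (SD, n = 3 each). The locus loc12216 had 24.5 ± 6.11, 16.7 ± 6.83 and 30.7 ± 10.9 CPM after hydroxyurea, against 0.968 ± 0.648, 0.733 ± 0.440 and 0.267 ± 0.261 CPM in those controls (SD, n = 3 each). Already low on day 4, loc19605 averaged 0.0661, 0.0520 and 0.0815 CPM after hydroxyurea, against 38.0, 44.4 and 44.9 CPM in those controls. For loc02296 the means were 22392, 21142 and 23108 CPM, against 15762, 14558 and 15047 CPM.

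**Figure D5:**
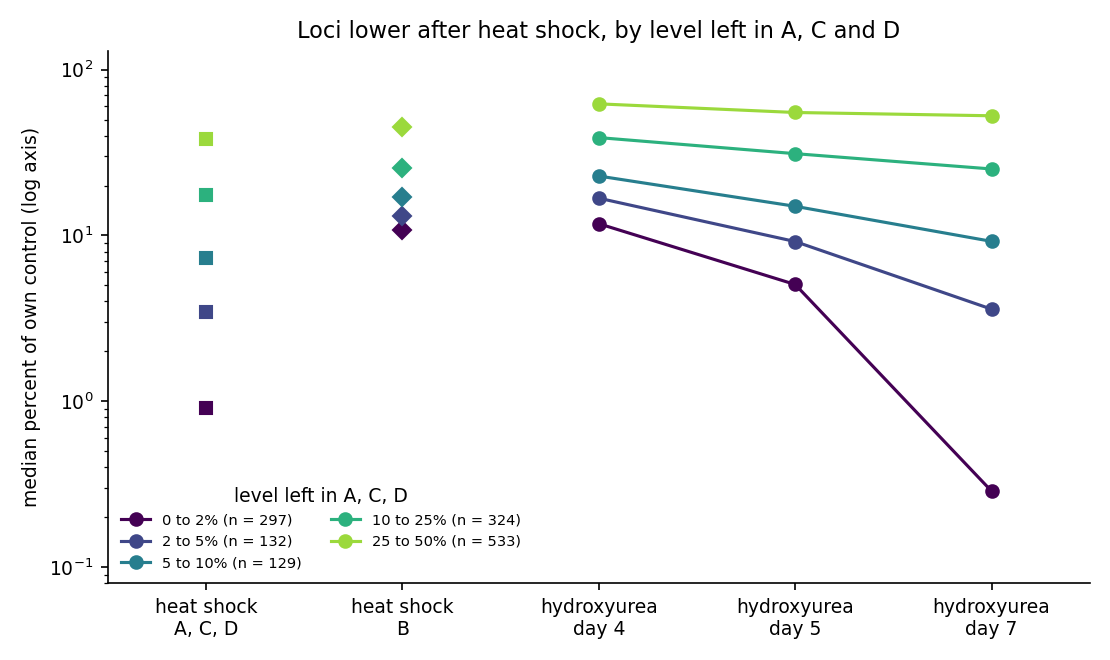
Median level (percent of own control, log axis) of loci lower after heat shock, in 5 classes by the level left after heat shock with replicate B aside. Squares are the mean of replicates A, C and D, diamonds replicate B, and circles hydroxyurea on days 4, 5 and 7. The order of the classes is the same in every column, and in the deepest class hydroxyurea declines to 0.287% on day 7.

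Heat shock was then tested directly against the other depletion treatments collected after 11 days without food. Against hydroxyurea day 11 (3 libraries), 471 loci differed (2.75% of those tested), 327 higher (1.91%) and 144 lower (0.842%) after heat shock. Replicates A to D were the highest heat shock library in 26, 208, 60 and 33 of these 327 loci. All of them took part in the test that chose the loci, and the same count over all loci tested was not made. The median level of the 327 loci was 4.60, 19.8, 8.14 and 5.77 CPM in heat shock replicates A to D. It was 2.49, 2.17 and 1.84 CPM in hydroxyurea replicates A to C, and untreated controls of day 11 had 44.4 to 49.4 CPM. Without replicate B, 118 loci were higher and 51 lower, and a fit of these groups alone called 26 loci. The count ranged from 35 to 933 when single libraries were left out, with 35, 48 and 169 loci without hydroxyurea replicates B, C and A and 933 without heat shock replicate A, so its size rests on single libraries. Against colchicine (0.4% for 8 h, 3 libraries), 5440 loci differed (31.8%), 2919 higher (17.1%) and 2521 lower (14.7%) after heat shock. Without heat shock replicate B, 4513 loci differed, and 1123 did in a fit of these groups alone. The colchicine libraries ranged from 13063545 to 30809029 counts, and the part of that depth in the result was not tested.

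Loci summarise assembled sequences, which were also tested singly. Tested by themselves, 2847 sequences were higher and 3527 lower after heat shock, 16.5% of the 38606 tested. Of the higher sequences 90.2% belonged to loci called higher, and of the lower sequences 88.7% belonged to loci called lower. These shares are descriptive, because a locus is the sum of its sequences and many loci have a single one. Among loci with 2 or more tested sequences, 37 of the 1570 higher loci and 38 of the 1424 lower loci held sequences called in both directions, as did 55 of the 5664 loci that were not called. Sequences called in the direction of their locus numbered 2 or more in 438 of those 1570 higher loci and in 595 of those 1424 lower loci. No sequence was called by itself in 575 higher and 398 lower loci. Values of single sequences are uncertain where reads could be split among the sequences of a locus.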

How the data were processed

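The labels' protocols name Qiagen RNeasy extraction, polyA enrichment and a stranded Illumina TruSeq preparation. The submitters' processing notes name cutadapt 1.11, Salmon 0.7.2 and DESeq2. The sequence set, the strand setting and any rounding are not given in the sources used here. The authors deposited whole-number counts for 79774 sequences at 25879 loci in 32 libraries of 10 groups. A second deposited table, the authors' scaled values of part of these sequences, was not used.

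Counts were summed per locus and tested with edgeR 4.0.16 (R 4.3.3), by quasi-likelihood F-tests (robust dispersion, TMM factors), after filterByExpr (minimum 10 counts) and Benjamini-Hochberg adjustment at 0.05. The model held a mean for each of the 10 groups and used all 32 libraries. CPM uses TMM-scaled totals, and log2 CPM a prior count of 2. The standard error of a fold change was taken from the F statistic. The 95% intervals of fold changes use that standard error and 22 residual degrees of freedom, so they include the spread between libraries, whereas limits of 3 counts cover counting error only. Summed over loci and scaled by library totals, chi-square per degree of freedom was 15.1 or more for every pair of replicates. In sum, replicates thus differed by more than sampling noise. Abundant loci such as loc01654 weigh heavily in that sum, which does not describe each locus. DESeq2 1.42.0, limma 3.58.1 (voom with quality weights), other scalings, filters and sample sets were alternatives. Loci were named by the rule stated with them, adding the 2 most abundant uncalled loci with an absolute log2 fold change under 0.1. The groups, lists and rules were chosen with earlier results of these data known. No genome positions or sequences are given.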

Additional observations from a re-analysis of the deposited data

Results flagged for a closer look

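For 22 measures in the heat shock and control day 11 groups of 4, the highest or lowest library's distance to the next one was divided by the whole range. In 3 of them this ratio passed Dixon's 95% limit for 4 values; chance passes about 1 in 20, or 1.1 of these. All 3 were values of heat shock replicate B. That library had already been singled out, loc01654 was chosen after its values were seen and the measures overlap, so these values describe replicate B and are no independent support for its standing apart. It had 2.91 CPM of the lower locus loc19605, where the other heat shock libraries had 0.0946 to 0.380 CPM. It had 516 CPM of the lower locus loc11404, where the others had 10.5 to 84.9 CPM. The most abundant locus of the table, loc01654, held 7.54% of its counts, where the others had 0.898% to 1.84%.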

How the results depend on the processing

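The heat shock comparison gave 4962 loci in the analysis reported, 4226 to 4962 when single libraries were left out, and 4276 to 6570 under the other alternatives at the level of loci. The comparison with hydroxyurea day 11, 471 loci in the analysis reported, gave 278 with library totals alone, 900 with DESeq2, 1476 with voom and library quality weights, 236 with no filter, 26 with only the groups compared in the fit, 1206 without the colchicine libraries in the fit, and 35 to 933 when single libraries were left out. That with colchicine, 5440 loci, gave 2614 with voom, 1123 with only the groups compared, and 4513 to 7142 when single libraries were left out. Hydroxyurea on days 4, 5 and 7 gave 3116, 3728 and 4403 loci, and 5224, 6014 and 7063 with voom, in alternatives chosen after seeing the data. The cause of these differences was not tested. The share of counts in the 100 most abundant loci, higher by 1.06 points after heat shock, had a difference of -2.24 for the top 10, of 4.46 with loc01654 left out (chosen after seeing the data), and of -0.667 to 3.57 when single libraries were left out. The named loci kept their call, or its absence, in 107 of 108 alternatives, the exception being loc20703 with library totals alone. The uncalled loc24950 lay on both sides of 0, at -0.12 to 0.07. The same libraries chose these loci for their large or small changes, so that count does not describe other loci. When any of the 8 libraries was left out, 78.1% of the lower and 64.2% of the higher loci kept their call. Fitted log2 fold changes ranged from 8.89 to 10.47 for loc12216, 0.73 to 0.91 for loc02296, -7.94 to -5.82 for loc19605 and -6.65 to -4.19 for loc11404. With only the groups compared in the edgeR fit, adjusted p rose to 8.25e-06 for loc12216 and 0.000152 for loc02296. It rose to 0.00182 for loc19605 and 0.0393 for loc11404. Between heat shock and control day 11, the deviations of libraries of the same letter correlated across loci with r of -0.245 to 0.0195. Libraries of different letters had r of -0.239 to 0.308, so the letters showed no pairing of these groups. With replicate letters as a block, the comparisons with control day 11, hydroxyurea day 11 and colchicine gave 5408, 438 and 5574 loci. Hydroxyurea on days 4, 5 and 7 then gave 3491, 4115 and 4794. Whether a letter marks a batch, in these groups or the others, was not tested.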
